A study of Homo sapiens with 12 samples.

Results

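Coenzyme Q, haem, lipoate and iron-sulphur clusters are cofactors of the respiratory chain and of other mitochondrial enzymes, and they are made largely inside mitochondria by proteins that are encoded in the nucleus. The mRNAs of 36 genes of these pathways were followed in a count table of 62703 genes. The genes were listed by name, and their rows were found through the gene identifiers of the GENCODE annotation: 13 of coenzyme Q synthesis, 7 of haem synthesis, 13 of iron-sulphur cluster synthesis and 3 of lipoate synthesis. Of the 36 genes, 34 passed edgeR's filter for weakly counted genes (set at 10 counts, applied over the 4 conditions), and COQ8A and FDX2 did not.

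The libraries were from HCT116 cells, an established human colorectal carcinoma line, and those with control siRNA are described as wild-type. Cells received control siRNA or hnRNP U siRNA at 2 nM and were collected after 48 h. The latter targets the mRNA of HNRNPU, a nuclear and cytoplasmic RNA-binding protein studied here for its binding to RNA G-quadruplexes (RG4s). Total RNA and heavy polysomal (HP) RNA, the RNA that sediments with many ribosomes, were sequenced from 3 experiments for each siRNA, 12 libraries in all. Libraries of the same number carry 1 experiment code in their titles, across both siRNAs and both fractions. Light polysomal and non-polysomal RNA were not analysed here, a polysome profile came from cells treated briefly with cycloheximide, and the sequence of the hnRNP U siRNA used for these libraries is not given in the sources used here. Knockdown by transfection is partial and is measured in the whole culture.

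HNRNPU was lower with hnRNP U siRNA in total RNA (log2 fold change −2.70, SE 0.056) and in HP RNA (−3.82, SE 0.061; edgeR adjusted p = 3.1e-15 and 3.8e-18). Library totals ran from 30305012 to 39761103 counts. With control siRNA, the nuclear RNAs MALAT1 and NEAT1 were lower in HP RNA than in total RNA (log2 −2.58 and −2.34), and GAPDH and ACTB were higher (0.88 and 0.89). With hnRNP U siRNA the ratios of MALAT1 and NEAT1 were −1.76 and −2.22. In HP RNA MALAT1 rose from 3.59 to 7.55 CPM (counts scaled to library size; log2 fold change 1.03, edgeR adjusted p = 1e-05) and NEAT1 from 16.4 to 24.7 CPM (0.55, edgeR adjusted p = 2.5e-05). In total RNA they had 0.21 and 0.45, the change in the ratio did not pass for either (edgeR adjusted p = 0.19 and 0.84), and the part of this in the HP values of the cofactor genes was not tested. All 8 epithelial markers searched for were expressed (summed level 4120 to 8600 CPM over the libraries). Of 9 markers of other cell types, 8 had a mean under 0.1 CPM in every condition, and the exception, COL1A1, made their sum 16.2 to 17.6 CPM in total RNA with control siRNA and 9.56 to 10.7 CPM with hnRNP U siRNA. In HP RNA the sum was 14.1 to 16.4 CPM and 6.74 to 8.65 CPM. The part of this shift in the results was not tested.

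The pathways meet at several enzymes. Coenzyme Q is built by joining a long isoprenoid tail to a benzoquinone ring that is then modified by a complex on the inner membrane, and it carries electrons to complex III. Haem synthesis starts and ends in mitochondria with middle steps in the cytosol. Iron-sulphur clusters are assembled on a scaffold protein from iron and from sulphur taken off cysteine, are handed on by carriers, and are needed by the respiratory complexes and by lipoic acid synthase. Lipoate is attached to the acyltransferase subunits of the 2-oxoacid dehydrogenases and to the H protein of glycine cleavage.

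The study is about RG4s, so the canonical transcripts of the 36 genes were searched on the transcript strand for 4 runs of at least 3 G separated by loops of 1 to 7 nt. The motif was found in 5 of the 36 transcripts (13.9%), against 23.0% of the canonical transcripts of all 20046 protein-coding genes searched. The share was 26.7% for the 12758 protein-coding genes that passed the filter, which leave out COQ8A and FDX2. It lay in the coding sequence of GLRX5 and FDX2, in the 3′ UTR of COQ8B and LYRM4, and in both regions of FDXR. The 6 matches to this pattern, shown because hnRNP U is studied for RG4 binding, are given 5′ to 3′ with the G runs in capitals:

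COQ8B, 3′ UTR, chr19:40691570-40691588, minus strand: GGGGtgcGGGGtGGGGGGG

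FDXR, 3′ UTR, chr17:74862755-74862772, minus strand: GGGaGGGGaaGGGctGGG

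FDXR, coding, chr17:74862864-74862890, minus strand: GGGGccaGGGcacGGGGaagcccaGGG

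GLRX5, coding, chr14:95535163-95535187, plus strand: GGGGtccGGGcgtgcGGGcggcGGG

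LYRM4, 3′ UTR, chr6:5108977-5109002, minus strand: GGGctgttGGGGGccctcaGGGaGGG

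FDX2, coding, chr19:10315888-10315915, minus strand: GGGGGcacttccGGGtcGGGGGaGGGGG

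The coordinates are of GRCh38 with the transcripts of GENCODE. A match is a description of the letters and not a folded structure, and other transcripts and looser patterns were not searched. COQ2, NFS1, UROS, PPOX and LIPT1, the genes called between the siRNAs with a log2 change of at least 0.5 in size in either fraction, held no match, and GLRX5, which came next just under that size, held the match above.

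The paper lists more than a single hnRNP U siRNA, so 3′ UTRs were also searched for the 7-nt matches to their seeds, which show where an siRNA could act off target. The match GTATGCT to the first was in LYRM4 alone of the 36 genes (2.78%, against 6.23% of the 20046 genes and 7.29% of the 12758). TTGTAGT of the second was in ALAD alone (2.78%, against 10.9% and 13.1%). The sites are shown with the match in capitals:

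LYRM4, 3′ UTR, chr6:5108419-5108440, minus strand: agatattgtttGTATGCTttta

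ALAD, 3′ UTR, chr9:113387035-113387064, minus strand: ctcaatcaaatTTGTAGTttgtaaaagtat

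The seed match CCCAAAT of the control siRNA was in the 3′ UTRs of COQ6, FECH, GLRX5 and LYRM4 (11.1%, against 13.5% of the 20046 genes and 15.2% of the 12758). Both genes with a match to an hnRNP U siRNA were called lower in a fraction, LYRM4 in total RNA (−0.20) and ALAD in HP RNA (−0.24). Of all genes tested, 29.3% were called lower in total RNA and 26.3% in HP RNA. These are shares of each fraction alone, and the share called lower in either fraction, which is at least as large, was not counted. The call of ALAD was lost in 3 of 12 alternative fits (edgeR adjusted p 0.058 to 0.12). LYRM4 also holds the control match. Of the other genes with that match, COQ6 was lower in HP RNA (−0.42), and FECH and GLRX5 were higher in total RNA (0.15 and 0.50). The part of these sites in the values was not tested.

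Levels in total RNA with control siRNA were compared per length, as CPM scaled by TMM and divided by the kilobases of exon. CPOX, the oxygen-dependent enzyme that oxidizes coproporphyrinogen, was highest at 113 ± 7.06 CPM per kb (SD, n = 3). GLRX5, a glutaredoxin that carries clusters from the scaffold, followed at 36.2 ± 1.32 CPM per kb (SD, n = 3) and ALAS1, which makes the first haem precursor, at 29.1 ± 1.33 CPM per kb (SD, n = 3). The 12 tested coenzyme Q genes lay between 1.3 CPM per kb for COQ8B and 13.5 CPM per kb for COQ10B. COQ10B, COQ3 and PDSS1 (13.5, 13.3 and 13.2 CPM per kb) did not differ beyond their spread. The lipoate genes were among the lowest by this measure, LIAS at 2.08, LIPT1 at 1.57 and LIPT2 at 0.573 CPM per kb. The exon length takes in every annotated transcript of a gene and exceeds the canonical transcript by unlike amounts. It is 11318 against 3572 nt for LIAS, 9505 against 1336 nt for UROS and 4423 against 983 nt for ISCU. The order of the genes depends on this choice.

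COQ8A and FDX2 had no more than 4 counts in any library, with 0 counts in 3 and 2 of the 12 libraries. A count of 0 allows up to 3 counts, or 0.0755 to 0.099 CPM at these depths, for counting error alone. COQ8A shares 58.3% of its exon bases with another gene of the same strand, and FDX2 shares 73.4%, so their counts do not show how much of these mRNAs was present.

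**Figure D1:**
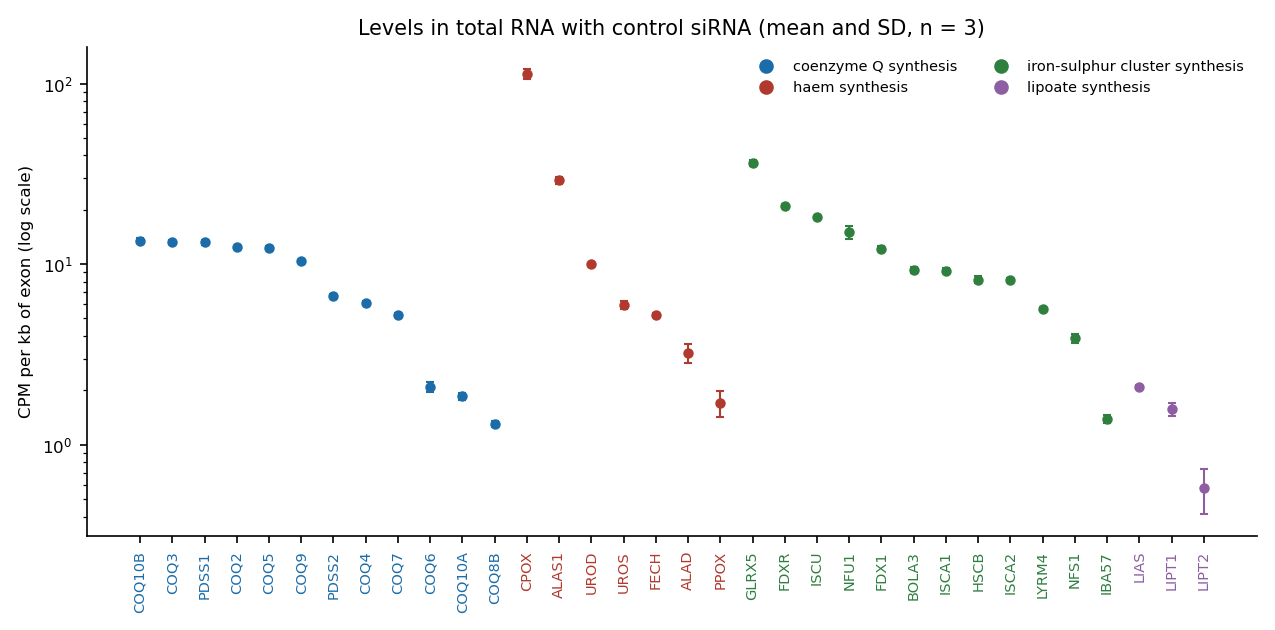
Level of the 34 tested mRNAs in total RNA with control siRNA, in CPM per kb of exon on a log axis, as mean (points) and SD (bars) of 3 libraries, ordered within each pathway. CPOX stands highest at 113 CPM per kb and LIPT2 lowest at 0.573 CPM per kb.

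To see how silencing of hnRNP U changed these mRNAs, the siRNAs were compared within total RNA and within HP RNA. In total RNA, 14 of the 34 tested genes rose and 6 fell (41.2% and 17.6%, at an edgeR adjusted p under 0.05), where 28.0% of all 15920 genes tested were called higher and 29.3% lower. In HP RNA, 12 rose and 7 fell (35.3% and 20.6%), where 25.5% of all genes were called higher and 26.3% lower. The median log2 fold change of the 34 genes was 0.10 in total RNA and 0.08 in HP RNA, against 0.00 and 0.01 for all genes, and most changes were small: 23 and 19 of the 34 were within 0.25 on the log2 scale. A change of at least 0.5 in size was called in HP RNA for 4 of the 34 (11.8%), where it was called for 23.5% of all genes. In bulk RNA, a lower level in every cell and a loss in some of the cells cannot be told apart.

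Between the fractions, 13 of the 34 genes (38.2%) passed the test in both with the same sign, where 45.0% of all 15920 genes did, and none passed with opposite signs. COQ2, UROS and CPOX fell in both. COQ3, COQ5, COQ10B, ALAS1, PPOX, NFS1, FDX1, FDXR, IBA57 and LIAS rose in both. A further 7 genes (20.6%) passed only in total RNA, 6 (17.6%) only in HP RNA, and 8 (23.5%) in neither, where the shares of all genes were 12.3%, 6.71% and 36%. These counts are from the fits without a block. With the replicate as a block, FECH, GLRX5, ISCU and LYRM4 passed in HP RNA too, and ALAD passed in total RNA too. LIPT2 then passed in HP RNA, and the joint shares over all genes were not counted for those fits. Passing in a single fraction is not a difference between fractions, which was tested apart.

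**Figure D2:**
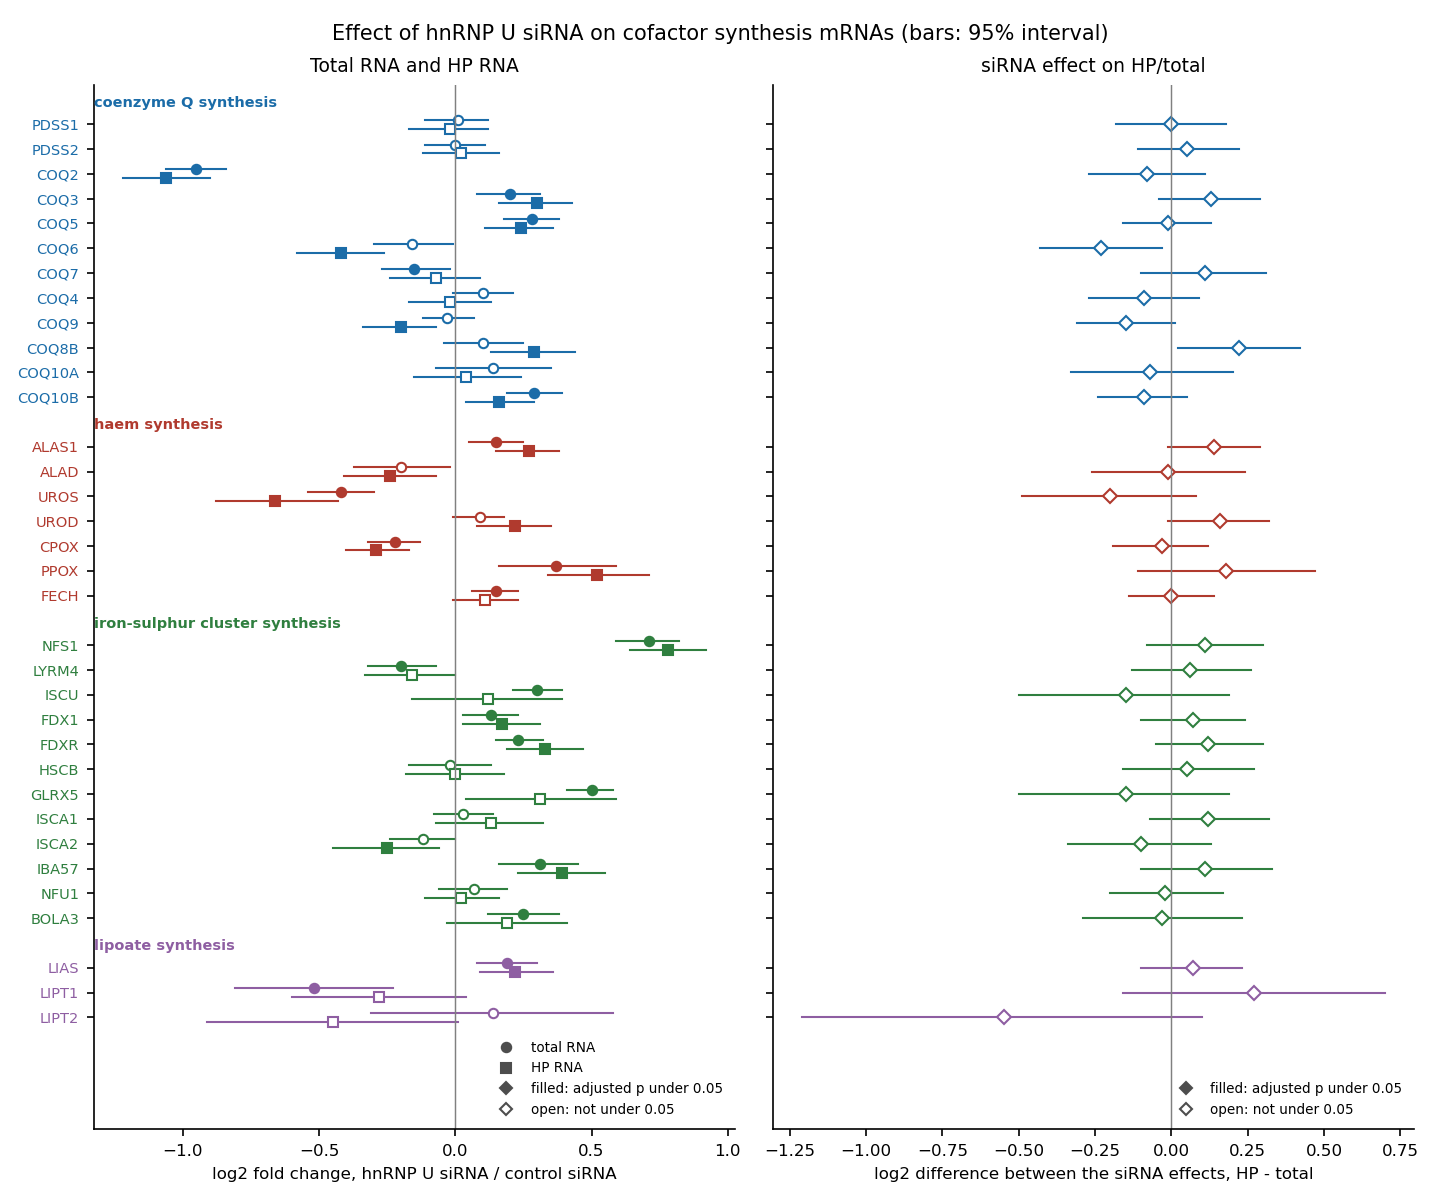
Left, log2 fold change of hnRNP U siRNA over control siRNA in total RNA (circles) and HP RNA (squares) for the 34 tested genes, with 95% intervals. Right, the siRNA effect in HP RNA minus that in total RNA, with 95% intervals. Filled symbols had an adjusted p under 0.05. COQ2 is the lowest in both fractions (−0.95 and −1.06) and NFS1 the highest (0.71 and 0.78), and no symbol on the right is filled.

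COQ2, which joins the isoprenoid tail to the ring precursor of coenzyme Q, had the largest change of the 34 genes in both fractions. The gene (ENSG00000173085) lies on chromosome 4 from 83261536 to 83284914, minus strand, and none of its exon bases are shared with another annotated gene. In total RNA it had 34.7, 34.0 and 34.9 CPM with control siRNA and 18.2, 18.1 and 17.6 CPM with hnRNP U siRNA. In HP RNA it had 46.5, 42.6 and 44.7 CPM against 24.3, 20.1 and 21.2 CPM. All 6 silenced libraries lay below all 6 control libraries. The log2 fold change was −0.95 in total RNA (SE 0.051, edgeR adjusted p = 2.1e-10) and −1.06 in HP RNA (SE 0.076, edgeR adjusted p = 3.3e-09), or 0.518 and 0.479 of the control level.

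The synthases upstream of COQ2 showed no such change. PDSS1 and PDSS2, the subunits of the enzyme that makes the tail, had log2 fold changes of 0.01 and 0.00 in total RNA and of −0.02 and 0.02 in HP RNA, with 95% intervals that went no farther from 0 than −0.17 and 0.16. The enzymes that modify the ring went both ways. The methyltransferases COQ3 and COQ5 rose in total RNA (0.20 and 0.28) and in HP RNA (0.30 and 0.24). COQ5 shares 3.2% of its exon bases with RNF10 on the opposite strand, which had log2 fold changes of 0.33 and 0.49. RNF10 had a mean of 5208 counts against 1641 for COQ5, and its part in the values was not tested. COQ6, a ring hydroxylase, fell in HP RNA (−0.42, SE 0.076, edgeR adjusted p = 0.00017) and had −0.16 in total RNA (adjusted p = 0.066).

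COQ7, the hydroxylase of a late step, fell in total RNA (−0.15, SE 0.058, edgeR adjusted p = 0.04), a call that was lost in 8 of 12 alternative fits (adjusted p 0.056 to 0.17). Its partner COQ9 fell in HP RNA (−0.20, SE 0.064, edgeR adjusted p = 0.014). COQ4, which belongs to the same complex, had 0.10 and −0.02 and passed in neither fraction. The atypical kinase COQ8B rose in HP RNA (0.29, SE 0.074, edgeR adjusted p = 0.0032) and had 0.10 in total RNA. COQ10B, a lipid-binding protein that handles finished coenzyme Q, rose in total RNA (0.29) and in HP RNA (0.16), and its paralog COQ10A had 0.14 and 0.04 without passing. Of the 12 tested coenzyme Q genes, 3 rose and 2 fell in total RNA, where 28.0% of all genes were called higher and 29.3% lower. In HP RNA 4 of the 12 rose and 3 fell, where 25.5% of all genes were called higher and 26.3% lower.

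**Figure D3:**
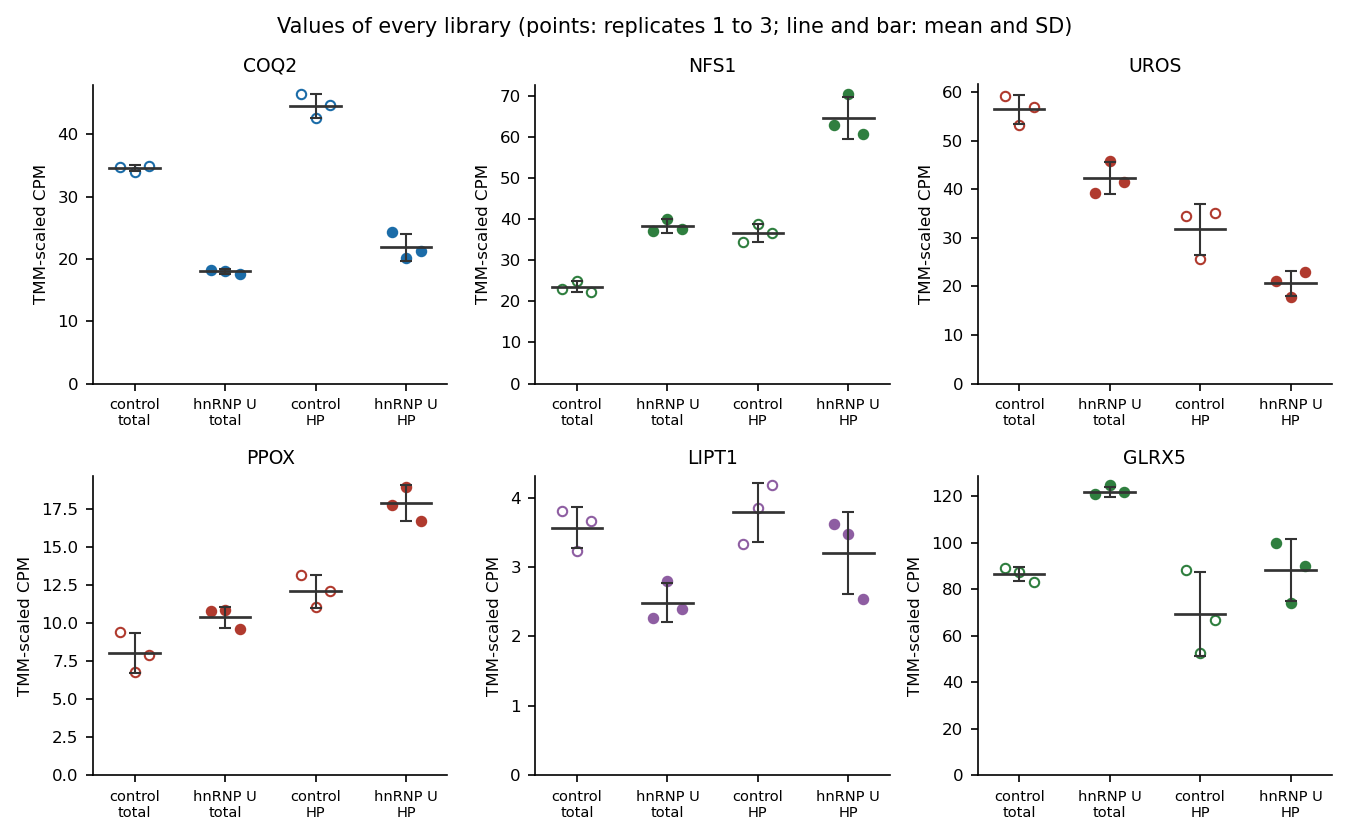
TMM-scaled CPM of each library for COQ2, NFS1, UROS, PPOX, LIPT1 and GLRX5 with control siRNA (open points) and hnRNP U siRNA (filled points) in total RNA and HP RNA, with the mean (line) and SD (bar) of 3 libraries, on linear axes from 0. In total RNA the COQ2 libraries fall from 34.0 to 34.9 CPM down to 17.6 to 18.2 CPM and NFS1 goes from a mean of 23.5 to 38.3 CPM, and the HP libraries of GLRX5 overlap between the siRNAs.

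In haem synthesis, 3 of 7 genes rose and 2 fell in total RNA (42.9% and 28.6%, against 28.0% and 29.3% of all genes). In HP RNA 3 rose and 3 fell (42.9% and 42.9%, against 25.5% and 26.3% of all genes). UROS, the cytosolic enzyme that closes the porphyrin ring, fell most. In total RNA it had 59.3, 53.2 and 56.9 CPM with control siRNA and 39.3, 45.9 and 41.6 CPM with hnRNP U siRNA. In HP RNA it had 34.6, 25.7 and 35.1 CPM against 21.2, 17.9 and 22.9 CPM. The groups did not overlap in either fraction. The log2 fold change was −0.42 (SE 0.057, edgeR adjusted p = 8.7e-06) in total RNA and −0.66 (SE 0.11, edgeR adjusted p = 6.8e-05) in HP RNA.

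PPOX, which oxidizes protoporphyrinogen in mitochondria, was the haem gene that rose most. It had 9.39, 6.80 and 7.92 CPM in total RNA with control siRNA and 10.8, 10.9 and 9.64 CPM with hnRNP U siRNA. In HP RNA the values were 13.2, 11.1 and 12.1 CPM against 17.8, 19.0 and 16.7 CPM, with every silenced library above every control library in both fractions. The log2 fold change was 0.37 (SE 0.10, edgeR adjusted p = 0.005) in total RNA and 0.52 (SE 0.089, edgeR adjusted p = 8.9e-05) in HP RNA. PPOX shares 26.2% of its exon bases with B4GALT3 on the opposite strand, which had log2 fold changes of 0.20 and 0.37. The strand setting of the counts is not given in the sources used here. Reads of the shared bases could therefore be counted for either gene or for neither. B4GALT3 had a mean of 1644 counts against 419 for PPOX, and the part of this overlap in the values of PPOX was not tested.

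The rest of the pathway moved less. ALAS1 rose in both fractions (0.15 and 0.27), from 73.7 ± 3.37 to 82.1 ± 3.55 CPM in total RNA and from 87.8 ± 3.66 to 108 ± 3.89 CPM in HP RNA (SD, n = 3). CPOX fell in both (−0.22 and −0.29), from 358 ± 22.3 to 307 ± 5.58 CPM and from 523 ± 26.8 to 439 ± 22.2 CPM (SD, n = 3). UROD, the decarboxylase after UROS, rose in HP RNA (0.22) and had 0.09 in total RNA. FECH, which inserts the iron, rose in total RNA (0.15) and had 0.11 in HP RNA (edgeR adjusted p = 0.11, and 0.034 with the replicate as a block). ALAD, the enzyme that condenses the first precursor, fell in HP RNA (−0.24) and had −0.20 in total RNA (edgeR adjusted p = 0.052, and 0.046 with the replicate as a block). Its 3′ UTR holds the seed match of the second hnRNP U siRNA, shown above.

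In iron-sulphur cluster synthesis, 7 of 12 tested genes rose and 1 fell in total RNA (58.3% and 8.33%, against 28.0% and 29.3% of all genes). In HP RNA 4 rose and 1 fell (33.3% and 8.33%, against 25.5% and 26.3% of all genes). The median log2 fold changes of the pathway were 0.18 and 0.15. NFS1, the cysteine desulphurase that supplies the sulphur, rose most. In total RNA it had 23.1, 24.9 and 22.3 CPM with control siRNA and 37.1, 40.1 and 37.6 CPM with hnRNP U siRNA. In HP RNA it had 34.5, 38.9 and 36.6 CPM against 62.8, 70.3 and 60.7 CPM. All silenced libraries of a fraction lay above all control libraries of that fraction. The log2 fold change was 0.71 (SE 0.055, edgeR adjusted p = 1.5e-08) in total RNA and 0.78 (SE 0.068, edgeR adjusted p = 3.9e-08) in HP RNA, or 1.63-fold and 1.72-fold. NFS1 shares 4.8% of its exon bases with a gene of the same strand and 1.4% with ROMO1 on the opposite strand. ROMO1 had log2 fold changes of 0.22 and 0.20 and a mean of 778 counts against 1412 for NFS1. The part of these overlaps in the values was not tested.

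LYRM4, the small partner that NFS1 needs, fell in total RNA (−0.20, SE 0.059, edgeR adjusted p = 0.0096) and had −0.16 in HP RNA (edgeR adjusted p = 0.091, and 0.041 with the replicate as a block). Its 3′ UTR holds an RG4 motif, the seed match of the first hnRNP U siRNA and that of the control siRNA, all shown or named above, and their part in this value was not tested. ISCU, the scaffold, rose in total RNA (0.30, SE 0.043, edgeR adjusted p = 1.6e-05) and had 0.12 in HP RNA (edgeR adjusted p = 0.48, and 0.03 with the replicate as a block). The electron donors FDX1 and FDXR, a ferredoxin and its reductase, rose in both fractions, FDX1 by 0.13 and 0.17 and FDXR by 0.23 and 0.33 on the log2 scale. The calls of FDX1 were lost in 4 of 12 alternative fits in total RNA (adjusted p 0.052 to 0.08) and in 6 of 12 in HP RNA (0.05 to 0.16). HSCB, the co-chaperone that frees the cluster from ISCU, had −0.02 and 0.00. It shares 20.2% of its exon bases with CHEK2 on the opposite strand, which had log2 fold changes of −0.13 and −0.04. CHEK2 had a mean of 1292 counts against 430 for HSCB, and its part in the values was not tested.

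GLRX5, which takes the cluster from ISCU, rose in total RNA from 89.3, 87.2 and 83.1 CPM to 121, 125 and 122 CPM (0.50, SE 0.041, edgeR adjusted p = 3.2e-08). In HP RNA its libraries were spread more widely and overlapped, with 88.4, 52.6 and 66.6 CPM with control siRNA and 100.0, 74.0 and 89.9 CPM with hnRNP U siRNA (0.31, SE 0.13, edgeR adjusted p = 0.052). ISCU had the same order among the HP libraries, 80.4, 51.5 and 59.3 CPM and 85.1, 58.1 and 68.9 CPM for replicates 1, 2 and 3. For both genes, replicate 1 was highest and replicate 2 lowest with either siRNA, and within each of the 3 experiments the silenced library was above the control library. With the replicate as a block, GLRX5 was called higher in HP RNA (0.33, edgeR adjusted p = 7.9e-07). GLRX5 shares 12.6% of its exon bases with genes of the opposite strand, among them SNHG10, which had log2 fold changes of 0.60 and 0.77. SNHG10 had a mean of 228 counts against 3210 for GLRX5, and its part in the values was not tested.

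Of the late-acting proteins that make and deliver larger clusters, IBA57 rose in both fractions (0.31 and 0.39). BOLA3 rose in total RNA (0.25, SE 0.061, edgeR adjusted p = 0.0021) and had 0.19 in HP RNA. ISCA1 had 0.03 and 0.13, and NFU1, which delivers clusters to lipoic acid synthase among others, had 0.07 and 0.02. ISCA2 fell in HP RNA (−0.25, SE 0.092, edgeR adjusted p = 0.029), with overlapping groups. It shares 3.4% of its exon bases with NPC2 on the opposite strand, which had log2 fold changes of −0.45 and −0.52. NPC2 had a mean of 2989 counts against 833 for ISCA2, and its part in the values was not tested. The count of genes called lower in HP RNA went from 7 to 4 without replicate 2 of hnRNP U siRNA in that fraction, where ALAD, COQ9 and ISCA2 lost their calls (edgeR adjusted p up to 0.12, 0.082 and 0.17 over the libraries left out in turn).

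Of the lipoate genes, LIPT1 and LIPT2 were weakly counted, while LIAS had a mean of 23.6 CPM in total RNA with control siRNA. LIAS, which inserts the sulphur atoms, rose in total RNA (0.19, SE 0.051, edgeR adjusted p = 0.005) and in HP RNA (0.22, SE 0.066, edgeR adjusted p = 0.0081). LIPT1, which passes lipoate to the dehydrogenase subunits, had 3.81, 3.23 and 3.66 CPM in total RNA with control siRNA and 2.26, 2.80 and 2.39 CPM with hnRNP U siRNA. It fell in that fraction (−0.52, SE 0.14, edgeR adjusted p = 0.0037), with no overlap. In HP RNA LIPT1 had 3.34, 3.86 and 4.18 CPM against 3.62, 3.48 and 2.54 CPM, which overlapped (−0.28, SE 0.15). LIPT2, which starts the pathway by moving an octanoyl group, had only 30 to 70 counts per library and log2 fold changes of 0.14 (SE 0.21) and −0.45 (SE 0.22), neither past the test, although the second passed with the replicate as a block (edgeR adjusted p = 0.046). LIPT1 and LIPT2 share 11.9% and 15.1% of their exon bases with genes of the opposite strand. For LIPT1, with a mean of 113 counts, these include MITD1 (645 counts, log2 fold changes −0.20 and −0.15) and TSGA10 (110 counts, 0.32 and 0.03). Their part in the values was not tested.

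Other genes of these pathways, 48 in number, were counted for comparison, and 46 were tested. In total RNA 14 rose and 13 fell (30.4% and 28.3%, against 28.0% and 29.3% of all genes). In HP RNA 13 rose and 9 fell (28.3% and 19.6%, against 25.5% and 26.3% of all genes). The medians were −0.02 and 0.02. Of the 46, 5 (10.9%) passed the test in HP RNA with a log2 fold change of at least 0.5 in size, where 23.5% of all genes did. DLAT, the acyltransferase of pyruvate dehydrogenase, rose from 120 ± 4.99 to 187 ± 8.04 CPM in HP RNA (SD, n = 3; 0.60), and DLST, that of 2-oxoglutarate dehydrogenase, fell from 164 ± 3.24 to 115 ± 5.64 CPM (SD, n = 3; −0.54). GCSH, the H protein, fell from 1.98 ± 0.31 to 1.23 ± 0.186 CPM (SD, n = 3; −0.71), and it has processed copies elsewhere in the genome, so its counts are uncertain. HSD17B8, a subunit of the mitochondrial fatty acid synthesis reductase, rose (0.60), as did CIAO2A of the cytosolic iron-sulphur assembly machinery (0.57). Among the other lipoate carriers of the list, DBT, the acyltransferase of the branched-chain dehydrogenase, fell from 42.7 ± 1.05 to 31.2 ± 1.2 CPM in HP RNA (SD, n = 3; −0.49), and PDHX, the binding protein of pyruvate dehydrogenase, had −0.04. DBT and PDHX lie outside the size of 0.5 and were named after their values were seen.

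The question of whether hnRNP U changes the ribosome loading of these mRNAs was put to the interaction of siRNA and fraction, which compares the ratio of HP to total RNA between the siRNAs. None of the 34 genes passed edgeR's quasi-likelihood test with adjustment over all genes (smallest adjusted p = 0.62), and 2 had an unadjusted p under 0.05. DESeq2 called none of them either. Of all 15920 genes, 0.0817% were called higher and 0.0817% lower (13 and 13), and 11 higher and 17 lower when DESeq2's size factors were used. Pairing the HP and total library of each culture raised the calls over all genes to 140 (97 higher and 43 lower), and the replicate as a block gave 78 (48 and 30), in neither case with any of the 34 genes among them. Leaving out 1 library gave 17 to 37 calls, of which 24.0% to 64.9% were higher. The 95% intervals of the 34 differences had a median half-width of 0.19 on the log2 scale, 30 of them lay wholly within 0.5 of no difference, and the widest belonged to LIPT2 (−0.55, interval −1.21 to 0.10).

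The smallest unadjusted p values were those of COQ6, COQ8B, UROD and ALAS1. COQ6 had 14.6, 14.3 and 13.0 CPM in total RNA with control siRNA and 12.8, 12.5 and 12.3 CPM with hnRNP U siRNA. In HP RNA it had 23.5, 20.7 and 22.2 CPM against 16.9, 16.9 and 16.9 CPM, so the groups were farther apart in HP RNA. The difference was −0.23 (interval −0.43 to −0.03, edgeR adjusted p = 0.62, and 0.23 to 0.84 over the alternatives). COQ6 shares 39.5% of its exon bases with genes of the opposite strand, ENTPD5 and FAM161B, whose log2 fold changes in HP RNA were 0.48 and −0.25.

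COQ8B had 16.4, 15.3 and 16.1 CPM in total RNA against 15.7, 17.8 and 17.9 CPM, and 16.7, 16.4 and 17.6 CPM in HP RNA against 20.7, 21.8 and 21.0 CPM. Its libraries overlapped in total RNA and not in HP RNA, with a difference of 0.22 (interval 0.02 to 0.42, edgeR adjusted p = 0.64). UROD had 39.1, 40.5 and 40.8 CPM against 42.8, 42.3 and 43.1 CPM in total RNA. In HP RNA it had 63.5, 65.8 and 72.3 CPM against 79.9, 84.7 and 75.2 CPM, all above the control libraries, with a difference of 0.16 (interval −0.01 to 0.32). For ALAS1, with 74.1, 76.9 and 70.2 CPM against 82.1, 85.6 and 78.5 CPM in total RNA and 85.4, 92.0 and 86.0 CPM against 109, 112 and 104 CPM in HP RNA, the difference was 0.14 (interval −0.01 to 0.29).

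Of the genes with an RG4 motif, COQ8B had a difference of 0.22, FDXR 0.12, LYRM4 0.06 and GLRX5 −0.15 (interval −0.50 to 0.19), and none passed. COQ2 and NFS1, which changed most in both fractions, had differences of −0.08 and 0.11.

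The distribution of the mRNAs between HP RNA and total RNA was then compared within each siRNA. With control siRNA, 23 of the 34 genes were higher in HP RNA and 5 were lower (67.6% and 14.7%), where 33.1% of all genes tested were called higher and 32.0% lower, and 39.8% and 27.9% of the 12758 protein-coding genes. With hnRNP U siRNA, 24 were higher and 5 lower (LIPT1 being added as higher with the replicate as a block, edgeR adjusted p = 0.043), where 34.4% and 33.7% of all genes and 41.1% and 29.2% of protein-coding genes were called. The median log2 ratio was 0.43 and 0.39, against 0.07 and 0.07 for protein-coding genes. Of the 46 other tested genes of these pathways, 35 were higher and 8 lower with control siRNA (76.1% and 17.4%). With hnRNP U siRNA 34 of them were higher and 5 lower (73.9% and 10.9%), and their medians were 0.41 and 0.39, so the high share was not particular to the 34 genes. The ratios are relative to the other mRNAs of a library and not shares of each mRNA on polysomes.

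**Figure D4:**
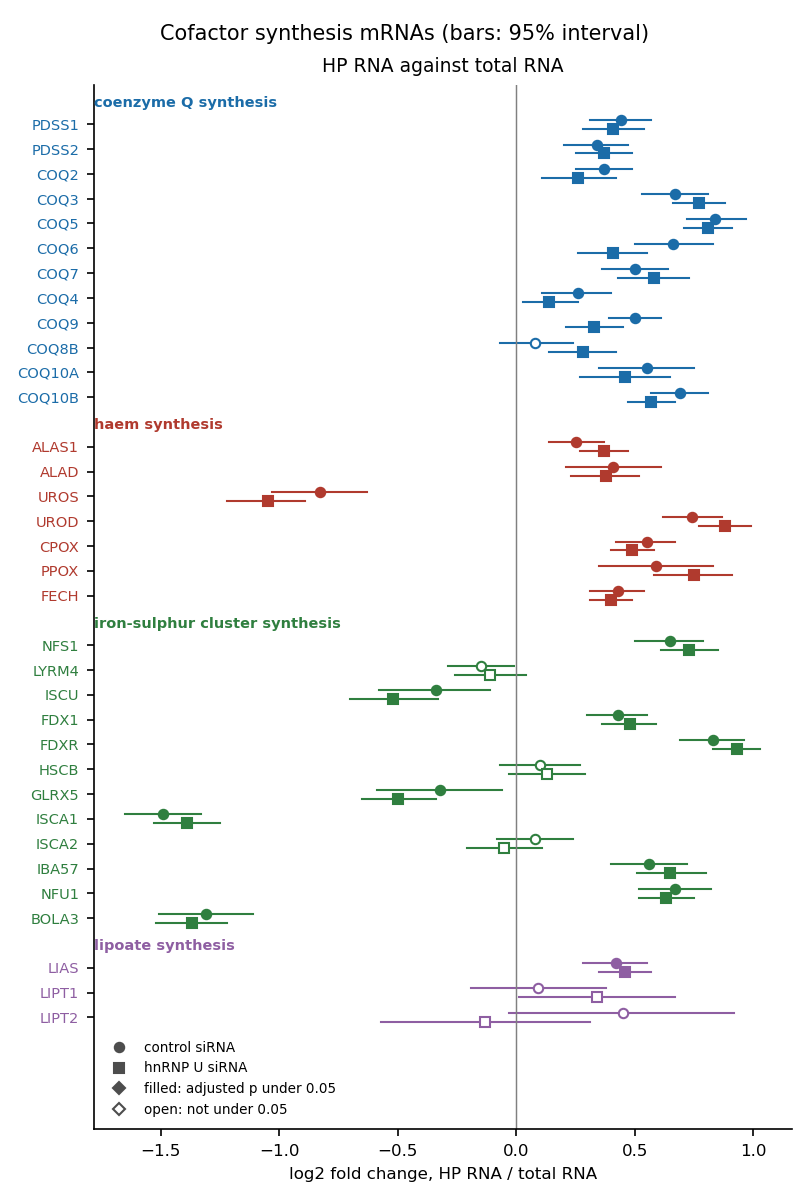
Log2 fold change of HP RNA against total RNA for the 34 tested genes with control siRNA (circles) and hnRNP U siRNA (squares), with 95% intervals and filled symbols at an adjusted p under 0.05. All 12 coenzyme Q genes lie to the right of 0, and ISCA1, BOLA3 and UROS lie farthest to the left (−1.49, −1.31 and −0.83 with control siRNA).

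The pathways differed in their counts, to be read beside the 39.8% and 27.9% of protein-coding genes called higher and lower with control siRNA. In coenzyme Q synthesis 11 of 12 genes were higher in HP RNA with control siRNA and 12 of 12 with hnRNP U siRNA, with none lower. Of the 8 other tested coenzyme Q genes counted for comparison, 7 were higher and 1 lower with either siRNA. COQ5 was the highest of the 34 genes with control siRNA, from 30.1, 31.4 and 30.8 CPM in total RNA to 57.9, 54.0 and 53.9 CPM in HP RNA (0.84, SE 0.057, edgeR adjusted p = 8.5e-09). In haem synthesis 6 of 7 were higher and UROS lower. UROD, with the values given above, was the third highest of all (0.74, SE 0.06). In iron-sulphur cluster synthesis 5 of 12 were higher and 4 lower, with either siRNA. FDXR went from 75.8, 74.2 and 77.5 CPM to 127, 126 and 150 CPM (0.83, SE 0.064, edgeR adjusted p = 3.8e-08), and NFU1, NFS1, IBA57 and FDX1 were also higher (0.67, 0.65, 0.56 and 0.43).

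ISCA1 was the lowest. With control siRNA it had 30, 28.9 and 31.0 CPM in total RNA against 10.2, 10.1 and 11.6 CPM in HP RNA. With hnRNP U siRNA it had 31.7, 30.8 and 29.6 CPM and 11.4, 12 and 12.3 CPM. The log2 ratio was −1.49 (SE 0.075, edgeR adjusted p = 6.5e-10) and −1.39, about 0.356 of the total RNA level with control siRNA. BOLA3 had 29.4, 28.9 and 27.2 CPM in total RNA and 11.9, 9.51 and 13.0 CPM in HP RNA, a log2 ratio of −1.31 (SE 0.094, edgeR adjusted p = 1.6e-08), and −1.37 with hnRNP U siRNA. UROS followed with −0.83 and −1.05. ISCU and GLRX5 had −0.34 and −0.32 with control siRNA, and both calls were lost without replicate 3 of HP RNA (edgeR adjusted p = 0.12 and up to 0.2) and under DESeq2. LYRM4 had −0.15 (edgeR adjusted p = 0.058), and 0.031 with the replicate as a block.

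Mitochondrial proteins of the iron-sulphur pathway are often small, and an mRNA with a short coding sequence has room for few ribosomes, so the log2 ratio was set beside coding length. The canonical transcript of LYRM4 has 276 coding nt, BOLA3 324, ISCA1 390, ISCA2 465, GLRX5 474, ISCU 504 and FDX1 555, and the other 27 tested genes have more than 600. The 7 short mRNAs had a median log2 ratio of −0.32 with control siRNA and the 27 others one of 0.50. Among all protein-coding genes tested, those up to 600 coding nt had a median of −0.18 (n = 1566) and longer ones one of 0.10 (n = 11192). Spearman's rho between coding length and the ratio was 0.41 over the 34 genes and −0.10 over all 12758 genes. Genes of 1 library share its depth and are not independent replicates. The class medians over all genes rose from −0.73 at up to 300 nt to 0.25 at 601 to 900 nt and went down to 0.01 above 1500 nt.

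Within the short mRNAs the order of the ratios did not follow coding length. In the class of 301 to 400 nt, with 349 genes and a median of −0.31 (quartiles −0.81 and 0.12), 5.73% of genes had a lower ratio than ISCA1 and 8.02% a lower ratio than BOLA3. LYRM4, which is shorter than both, had a ratio above 86.4% of the 257 genes in its class. FDX1 and ISCU, in the same class of 501 to 600 nt, had 0.43 and −0.34. UROS, with 798 coding nt, had a lower ratio than all but 9.29% of its class, whose median was 0.25. Of the 34 genes, 27 were above the median of their class, including all 12 coenzyme Q genes, 6 of 7 haem genes and 7 of 12 iron-sulphur genes. Spearman's rho between the ratio and the length of the 3′ UTR was −0.03 over the 34 genes, and the part of either length in the ratios was not tested.

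**Figure D5:**
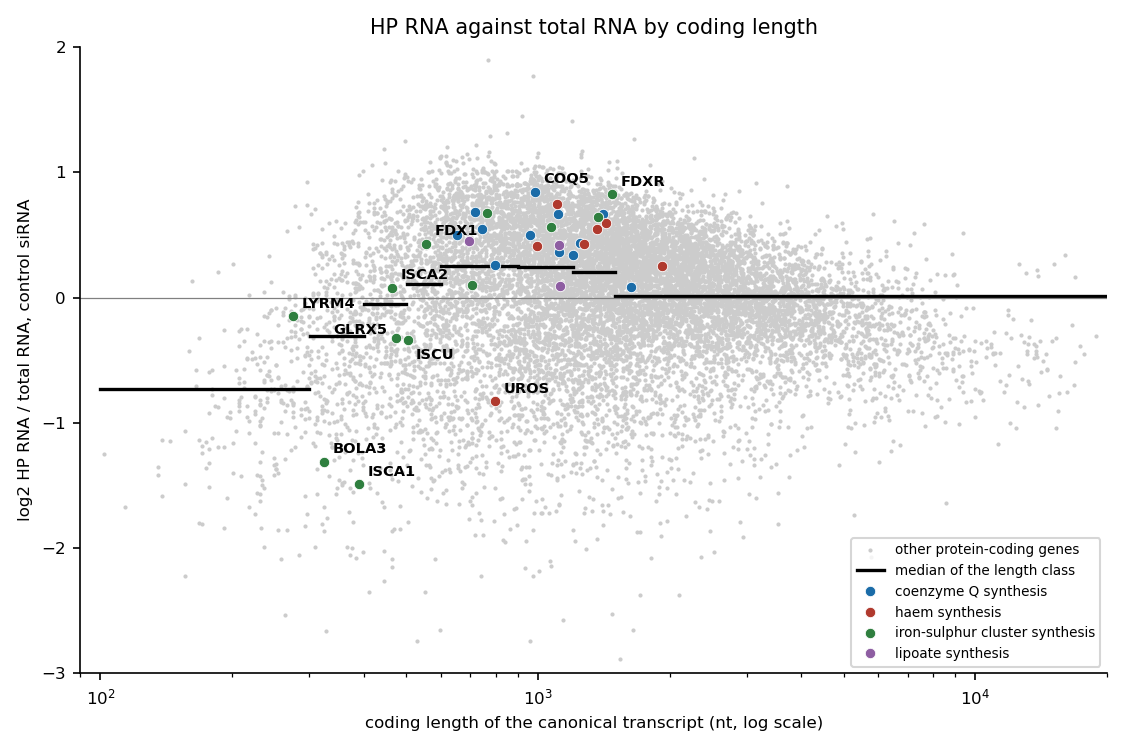
Log2 ratio of HP RNA to total RNA with control siRNA against coding length of the canonical transcript (log axis) for the tested cofactor genes (coloured points) and the other protein-coding genes (grey, with 18 of 12758 genes outside the range drawn). Black lines are medians of length classes. ISCA1, BOLA3 and UROS lie well under the medians of their classes, and most coenzyme Q genes lie above theirs.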

How the data were processed

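RNA-seq of total RNA and HP RNA was analysed in 12 libraries. Per the labels and the methods, the directional libraries had been enriched for poly(A) RNA. The submitters' notes name CASAVA 1.8 and STAR, and single reads were trimmed by Trim Galore before alignment to the hg38 assembly. The authors deposited raw counts for GENCODE genes, which were not normalized. The version of STAR and the strand setting of the counts are not given in the sources used here.

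GENCODE release 44 supplied names, lengths, coordinates and transcripts, and 62686 of 62703 identifiers matched it by their stable part. Genes were kept by edgeR's filterByExpr (minimum count 10 over the 4 conditions), which left 15920. Differences were tested with edgeR 4.0.16 in R 4.3.3 (TMM, quasi-likelihood F-test, two-sided, Benjamini-Hochberg over all 15920 genes, threshold 0.05). Each siRNA or fraction comparison used its 6 libraries, and the interaction of siRNA and fraction used all 12. CPM values were scaled by TMM over the 12 libraries, and CPM per kb used the union of exons. Standard errors were derived from the F statistic.

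Every gene listed could be named. Values of every library were given for genes called between the siRNAs with a log2 change of 0.5 or more in size, for the 4 smallest unadjusted p values of the interaction, and for the 3 highest and 3 lowest ratios of HP to total RNA; GLRX5 and ISCU were added after their values were seen. Other pathway genes were named where called in HP RNA with at least 0.5. The genes and lists were chosen with earlier results of these data known.

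Counts come from reads without molecular identifiers, so a floor from counts covers counting error only, and errors are between 3 experiments. Sample titles give libraries of 1 replicate number the same experiment code, so the numbers were taken to pair them, and blocked values stand beside results whose call they change. Deviations of same-numbered libraries from their group means correlated at 0.184 to 0.243 between HP and total RNA with control siRNA, at 0.086 to 0.22 with hnRNP U siRNA, and between the siRNAs at 0.096 to 0.199 in HP RNA and at 0.014 to 0.113 in total RNA. No 2 libraries of a condition agreed within sampling noise (chi-square per degree of freedom 3.45 to 9.68). On simulated data of the same size the test recovered 94% to 99% of genes changed by a log2 fold change of 1 in the 5 comparisons. The changed genes were drawn from those with a mean over 1 CPM, so recovery under that level is not known. Smaller changes and replicate effects were not simulated. For the interaction, 32 of the 34 differences were within 0.25, and recovery at that size is not known.

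Alternatives were DESeq2 1.42.0, DESeq2's size factors, every gene with a count kept, a minimum count of 50, a replicate or culture block, all 12 libraries in 1 fit, and leaving out each library in turn.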

Additional observations from a re-analysis of the deposited data

Results flagged for a closer look

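HNRNPU itself was 1 of the 26 genes whose siRNA effect differed between fractions by the interaction test, and the 1 named here, with a difference of −1.09 on the log2 scale (SE 0.082, edgeR adjusted p = 2.3e-07). None of the 34 tested cofactor genes passed that test.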

How the results depend on the processing

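Of 100 values (each gene called in a comparison, and the 4 interaction values named), 89 kept their direction and their side of the threshold under every alternative and none changed direction. The other 11 lost their calls in 2 to 8 fits each: ALAS1, COQ7 and FDX1 in total RNA, ALAD, COQ9, COQ10B, FDX1 and ISCA2 in HP RNA, GLRX5 and ISCU in HP against total RNA with control siRNA, and COQ4 with hnRNP U siRNA (edgeR and DESeq2 adjusted p 0.05 to 0.25). The cause was not tested.

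In HP against total RNA with control siRNA, 5 genes were called lower and 3 under DESeq2. Leaving out 1 library gave 3 to 5, with 3 without control siRNA HP RNA replicate 3. For HP RNA between the siRNAs, the 7 lower calls became 4 to 8, with 4 without hnRNP U siRNA HP RNA replicate 2, and the 12 higher calls became 10 to 14. In total RNA leaving out 1 library gave 12 to 15 higher and 5 to 6 lower. Fewer samples were fitted in these cases.

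The replicate block gave 15 higher and 9 lower calls in HP RNA, where GLRX5, ISCU and FECH were added as higher (edgeR adjusted p = 7.9e-07, 0.03 and 0.034) and LYRM4 and LIPT2 as lower (0.041 and 0.046), and ALAD was added as lower in total RNA (0.046). With the block, 25 genes were called higher in HP against total RNA with hnRNP U siRNA, LIPT1 being added (edgeR adjusted p = 0.043), and no other call changed apart from LYRM4 above. For the interaction, no gene was called under the replicate or culture block, while the calls over all genes went from 26 to 78 and 140, to 49 of 13141 genes under DESeq2, and to 61 with no filter.

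Depth limits LIPT1 and LIPT2 most, and COQ8A and FDX2 could not be tested.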
